A study of Mus musculus with 18 samples.

Results

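The 34 genes described here encode the contractile machinery of smooth muscle and the factors that switch it on. They were chosen by gene name, as the rows of the deposited count table that carry one of 34 symbols, and are 34 of 46333 named genes. All 34 passed the filter on low counts and stand among the 19323 genes tested. RNA came from the urinary bladders of wild type female BALB/c mice, 8 weeks of age, with 3 biological replicates, each a library of its own, in each of 6 groups. Cyclophosphamide (CP, 150 mg/kg, intraperitoneal) was given to 4 groups, of which bladders were collected at 3 days on a vitamin A-enriched diet, at 3 days on a normal diet, at 1 day on the vitamin A diet and at 1 day on the normal diet. The other 2 groups received saline and were collected at 1 day, on the vitamin A and on the normal diet, so no saline mice match the 3 day groups in day of collection. The enriched diet began a week before the injection. The labels give it as 566081 UI of retinyl acetate per kilogram and the series text names retinyl palmitate, so the ester is uncertain.

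Smooth muscle shortens when calcium and calmodulin activate myosin light chain kinase, which phosphorylates the regulatory light chain of myosin and lets it pull on actin. Actin filaments are anchored at dense bodies in the cytoplasm and at dense plaques on the membrane, and desmin filaments tie these together. In the bladder this apparatus forms the detrusor muscle, which empties the organ, and it is also present in the walls of its vessels. Many of its genes are switched on by serum response factor (SRF) and its cofactor myocardin, which act at a DNA element called the CArG box.

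The CArG box was looked for in the 250 bases upstream of the RefSeq transcription starts (build GRCm38.p6), since many of the members have SRF as a known regulator. The element reads the same on both strands and was searched by its strict form. Windows were used for 29 of the 34 genes, the others being Myh11, Tagln, Actg2, Myocd and Nexn, and 5 of these 29 (17.24%) held a CArG box, against 439 of all 27025 genes with a window (1.624%). The members are a chosen list that includes Srf itself, so these shares are a description with no test. The 5 windows follow, written 5′ to 3′ on the strand of the gene, with the CArG boxes in capitals.
Srf (chr17:46556163-46556412, minus strand): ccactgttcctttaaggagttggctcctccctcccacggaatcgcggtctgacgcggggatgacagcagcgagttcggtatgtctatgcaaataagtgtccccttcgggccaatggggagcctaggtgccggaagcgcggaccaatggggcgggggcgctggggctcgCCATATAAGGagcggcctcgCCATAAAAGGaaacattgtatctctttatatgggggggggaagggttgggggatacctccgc
Myl9 (chr2:156775214-156775463, plus strand): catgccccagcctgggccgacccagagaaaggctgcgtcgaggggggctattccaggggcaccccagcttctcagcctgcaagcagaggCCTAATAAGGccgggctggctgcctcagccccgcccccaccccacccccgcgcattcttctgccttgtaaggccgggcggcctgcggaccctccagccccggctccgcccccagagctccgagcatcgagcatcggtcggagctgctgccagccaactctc
Ldb3 (chr14:34588682-34588931, minus strand): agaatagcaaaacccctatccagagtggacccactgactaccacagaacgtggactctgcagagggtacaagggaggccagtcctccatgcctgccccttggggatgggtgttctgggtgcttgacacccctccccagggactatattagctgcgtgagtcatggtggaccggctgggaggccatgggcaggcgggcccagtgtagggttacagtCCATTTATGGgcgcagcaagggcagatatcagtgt
Vcl (chr14:20929148-20929397, plus strand): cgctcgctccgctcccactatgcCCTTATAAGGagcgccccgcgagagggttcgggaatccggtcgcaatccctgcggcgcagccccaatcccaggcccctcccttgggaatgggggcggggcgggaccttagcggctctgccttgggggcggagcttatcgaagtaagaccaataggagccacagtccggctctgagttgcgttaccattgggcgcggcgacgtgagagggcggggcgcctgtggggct
Myl6, the second of its RefSeq starts (chr10:128493010-128493259, minus strand): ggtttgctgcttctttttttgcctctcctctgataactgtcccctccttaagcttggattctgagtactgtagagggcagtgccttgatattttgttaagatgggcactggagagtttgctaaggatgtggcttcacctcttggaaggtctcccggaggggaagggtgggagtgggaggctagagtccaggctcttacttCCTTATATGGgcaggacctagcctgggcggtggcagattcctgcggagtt
The Srf window held 2 boxes, which began 82 and 62 bases before the start. The box of Ldb3 began 35 bases before the start, that of Myl6 50, that of Myl9 161 and that of Vcl 227. A match describes the letters only, and windows without one say only that these letters are not in that stretch. A second start of Ldb3 lies close to the first, and its window held the same box. Among these 5 genes, Ldb3 alone passed the test in any comparison (3 days after CP against saline, normal diet), as given below.

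Libraries held 19439887 to 34431039 counts on named genes. Mitochondrial genes took 1.67% to 3.82% of these counts. Genes under 1000 bases, which include the members Myl6 (913 bases) and Pcp4 (641 bases), took 7.13% to 14.2%. Both extremes at the upper end lay in the vitamin A groups: replicate 2 at 3 days had 14.2% of counts on short genes, and replicate 3 at 1 day had 3.82% on mitochondrial genes. These 2 libraries also had the highest share of counts on the 34 genes within their groups. The results of the vitamin A groups are given with and without them. Leaving out the highest library of a group lowers its mean by that choice alone. The values without them are therefore a description and no check of the results. The markers of bladder tissue were present. The 13 urothelial markers summed to 9753 to 19170.4 CPM (counts scaled to a library total of 1000000 counts on named genes) over the 18 libraries, and the 7 smooth muscle markers, all of them members here, to 9837 to 31062 CPM. Cardiac markers other than Actc1 and Tnnt2 were at or near 0 (Myl2, Myl7, Myh6 and Nppa, each under 1 CPM in the mean of every group).

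Levels between genes were compared as FPKM, the authors' deposited values per kilobase of gene length. In saline mice on the normal diet, Tagln, the actin-binding protein transgelin, was the highest of the 34 at 3772 ± 702 FPKM (mean ± SD, n = 3 here and below). It ranked 6 among all named genes. Myl6, the essential light chain of myosin, had 2688 ± 399 FPKM and Myl9, its regulatory light chain, 2315 ± 476 FPKM. The 2 smooth muscle actins followed, Actg2 of the visceral type at 2125 ± 490.0 FPKM and Acta2 of the vascular type at 1891 ± 363 FPKM. Myl6, Myl9, Actg2 and Acta2 are neighbours whose intervals of 1 SD overlap in this order. Csrp1 had 1455 ± 195 FPKM, Cnn1 1237 ± 268 FPKM, Myh11 947 ± 44.7 FPKM and Des 921 ± 63.2 FPKM. At the low end stood Myocd at 10.8 ± 2.59 FPKM, Itga8 at 4.19 ± 0.779 FPKM and Pln at 3.43 ± 0.452 FPKM. The 34 genes thus spanned a wide range of abundance.

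Together the 34 genes took a smaller mean share of the library in each CP group than in saline mice of the same diet. On the vitamin A diet their share of all counts was 3.87%, 5.48% and 2.89% at 3 days, 4.03%, 2.74% and 4.93% at 1 day, and 6.36%, 5.0% and 4.51% in saline mice. On the normal diet it was 2.29%, 4.05% and 3.51% at 3 days, 2.73%, 4.0% and 4.34% at 1 day, and 5.53%, 6.44% and 5.29% in saline mice. On the normal diet all 6 CP libraries lay below all 3 saline libraries. The ranges overlapped on the vitamin A diet, where replicate 2 at 3 days (5.48%) and replicate 3 at 1 day (4.93%), the 2 libraries named above, lay above the lowest saline library (4.51%). The group means were 4.08 ± 1.31%, 3.28 ± 0.902%, 3.90 ± 1.10% and 3.69 ± 0.851% after CP (vitamin A 3 days, normal 3 days, vitamin A 1 day, normal 1 day), and 5.29 ± 0.959% and 5.75 ± 0.609% in saline mice on the vitamin A and normal diets. In a share of counts from whole bladders, fewer muscle cells, less of these messages per cell and more RNA from other cells cannot be told apart.

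**Figure D1:**
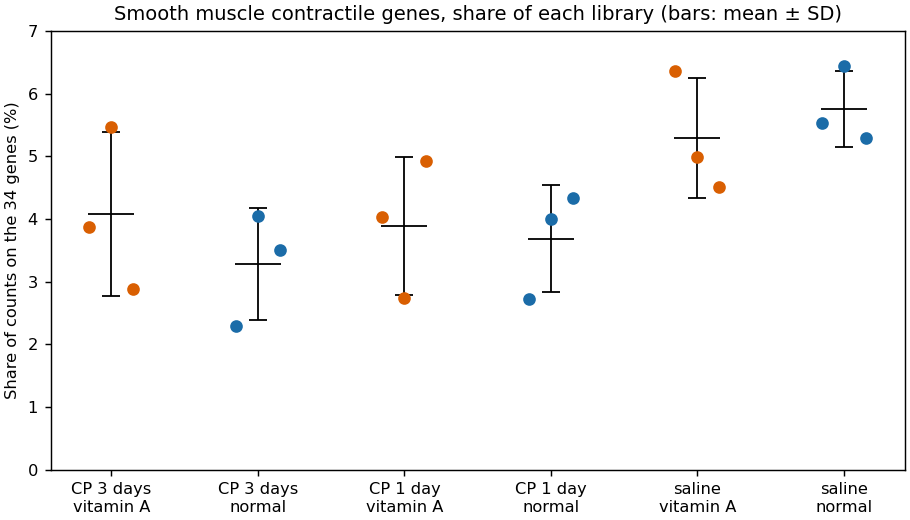
Share of each library's counts on named genes that fell on the 34 genes (y axis, percent) in the 6 groups (x axis), with 1 point per library and bars for the mean ± SD of 3 libraries. The 3 saline libraries on the normal diet sit between 5.29% and 6.44%, above all 6 CP libraries of that diet, while on the vitamin A diet 1 library at each time after CP reaches the saline range.

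At 3 days after CP on the normal diet, all 34 genes had a log2 ratio below 0 and 11 fell, with none raised (edgeR quasi-likelihood test, Benjamini-Hochberg adjusted p under 0.05 over all genes tested). Of all 19323 genes tested, 3.30% fell and 6.74% rose. The median log2 ratio of the 34 genes was -0.82 and that of all genes tested 0.00. In 28 of the 34, the 3 CP libraries lay entirely below the 3 saline libraries, against 14.3% of all genes, and in none entirely above, against 23.7%. The genes that fell were Synpo2, Synm, Ppp1r12b, Pgm5, Myh11, Casq2, Lmod1, Tpm1, Mylk, Csrp1 and Ldb3. The count moved when a library was left out: it was 3 without CP replicate 1, 4 without CP replicate 3, and 6, 4 and 7 without saline replicates 1, 2 and 3, while it stayed at 11 without CP replicate 2. It was 25 in a fit of these 2 groups alone, in which 3710 of 18003 genes passed in either direction, against 1940 of 19323 in the fit of all groups. The counts over all genes fell as well when a library was left out. They were 961 of 19961 without CP replicate 1, 1559 of 19999 without CP replicate 2 and 1267 of 20016 without CP replicate 3. Without saline replicates 1, 2 and 3 they were 1193 of 20039, 1102 of 20038 and 1105 of 19989.

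At 3 days on the vitamin A diet, 32 of the 34 ratios were below 0 and 2 genes fell, Casq2 and Synpo2, with none raised. Of all genes, 1.67% fell and 4.32% rose. The median log2 ratio was -0.35, against 0.01 over all genes. The libraries did not overlap in 10 of the 34 genes, all lower after CP, against 8.82% of all genes lower and 11.7% higher. The values moved with the library that had many short-gene counts: without CP replicate 2 the median was -0.73 and 4 genes passed, and without both libraries named above the median was -0.73 and 6 passed. The count was 0 without saline replicate 1, 0 without CP replicate 3 and 4 without CP replicate 1. By DESeq2 it was 6, and in a fit of these 2 groups alone 0. Over all genes 1156 of 19323 passed in either direction in the fit of all groups, 1766 of 19323 by DESeq2 and 499 of 17403 in the fit of these 2 groups. Without saline replicate 1, CP replicate 3 and CP replicate 1 the all-gene counts were 750 of 20028, 851 of 20013 and 1664 of 20019. Without CP replicate 2 the count was 1300 of 19978, and without both libraries 1548 of 19832.

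At 1 day on the normal diet, all 34 ratios were below 0, the median was -0.53 (0.00 over all genes), and 6 genes fell with none raised. Of all genes, 4.49% fell and 7.26% rose. Synpo2, Tpm1, Myh11, Pln, Csrp1 and Ppp1r12b were the 6. The CP libraries lay entirely below the saline libraries in 23 of the 34 genes, against 18.3% of all genes, and in none entirely above, against 20.8%. These calls lay close to the threshold, and the count was 0 to 2 in all 6 fits that left out 1 library, 11 by DESeq2 and 18 in a fit of these 2 groups alone. The counts over all genes in either direction also differed, with 2271 of 19323 in the fit of all groups, 3087 of 19323 by DESeq2 and 4463 of 17279 in the fit of these 2 groups. With 1 library left out they ranged from 1239 of 19989 to 1571 of 20047.

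At 1 day on the vitamin A diet, 27 ratios were below 0 and 7 above, the median was -0.50 (-0.01 over all genes), and 5 genes fell with none raised: Synpo2, Pcp4, Casq2, Itga8 and Myh11. Of all genes, 9.05% fell and 10.2% rose. The CP libraries lay entirely below the saline libraries in 12 of the 34, against 17.4% of all genes, and in none entirely above, against 20.9%. The count was 3 without CP replicate 2, 8 without CP replicate 3 and 11 without both libraries named above. Over all genes 2682 of 19996, 2832 of 19953 and 3862 of 19832 passed in either direction in these fits, against 3727 of 19323 in the main fit. Saline libraries are shared between the 1 day and the 3 day comparison of each diet, so these are not independent.

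**Figure D2:**
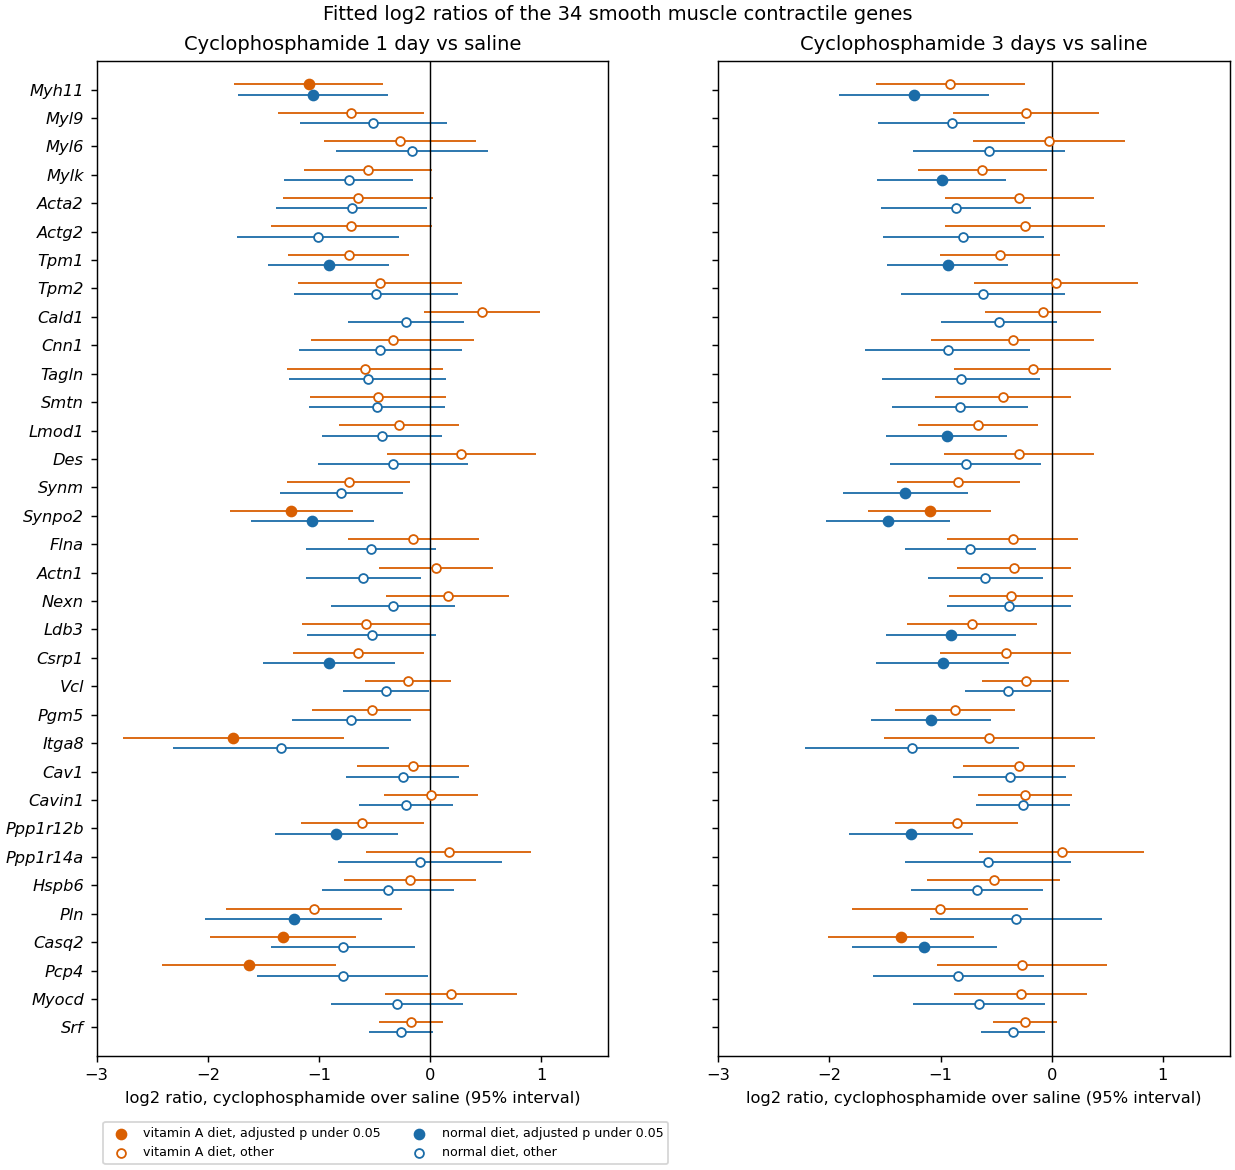
Fitted log2 ratio of CP over saline for each of the 34 genes (points) with its 95% interval (lines), at 1 day (left panel) and 3 days (right panel), on the vitamin A and the normal diet, with filled points for an adjusted p under 0.05. All 34 points of the normal diet lie left of 0 in both panels, with medians of -0.53 and -0.82, and Synpo2 is filled in all 4 comparisons.

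Across both diets, 7 of the 34 genes had all 12 CP libraries below all 6 saline libraries, against 2.01% of all genes. They were Synpo2, Synm, Myh11, Mylk, Ppp1r12b, Casq2 and Ldb3, and none had all CP libraries above, against 4.61%. The members are taken in turn below, by their part in the machinery, with values in CPM for replicates 1 to 3 of each group.

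Among the thick filament genes, Myh11, the smooth muscle myosin heavy chain (chromosome 16, 14012391 to 14110052, minus strand, build GRCm39 as the files give it), fell in 3 of the 4 comparisons with saline. At 3 days Myh11 had 4399, 3248 and 2420.3 CPM on the vitamin A diet and 1712, 4572 and 3148 CPM on the normal diet. After 1 day it had 3930.4, 1682 and 3413 CPM on the vitamin A diet and 2723, 3499.7 and 4095 CPM on the normal diet. Saline mice had 7026, 5870.3 and 5815 CPM on the vitamin A diet and 6971, 7466 and 6939 CPM on the normal diet. Every CP library lay below every saline library, with the highest at 4572 CPM and the lowest saline library at 5815 CPM. The ratios against saline were log2 -0.91 (SE 0.32, adjusted p = 0.11) at 3 days on the vitamin A diet and -1.24 (SE 0.32, adjusted p = 0.0184) on the normal diet. They were -1.09 (SE 0.32, adjusted p = 0.022) at 1 day on the vitamin A diet and -1.05 (SE 0.32, adjusted p = 0.0392) on the normal diet. The call at 1 day on the normal diet was lost without any 1 library (adjusted p 0.0645 to 0.138). That at 1 day on the vitamin A diet was lost without CP replicate 2 or without saline replicate 1 (adjusted p up to 0.102), and that at 3 days on the normal diet without CP replicates 1 or 3 or without saline replicate 2 (adjusted p up to 0.104).

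Mylk, myosin light chain kinase (chromosome 16, 34565569 to 34822806, plus strand), fell at 3 days on the normal diet only by the test (log2 -0.99, SE 0.28, adjusted p = 0.0285), although all its CP libraries lay below all saline libraries. Its values were 2026, 1707 and 1246 CPM on the vitamin A diet and 989, 2146 and 1654 CPM on the normal diet at 3 days and 2051, 1065 and 2181 CPM on the vitamin A diet and 1491, 1997 and 2002 CPM on the normal diet at 1 day. In saline mice Mylk had 2860.2, 2545 and 2185 CPM on the vitamin A diet and 2817, 3377 and 2918 CPM on the normal diet. The call was lost without CP replicates 1 or 3 or without saline replicates 1, 2 or 3 (adjusted p up to 0.157). The gap between the groups was narrow, at 2181 CPM in the highest CP library and 2185 CPM in the lowest saline library. The light chains did not pass the test. Myl9 ranged over 1071 to 3317 CPM after CP (median 1694) and 2212 to 3344 CPM in saline mice (median 2419), and Myl6 over 1524 to 4129.8 CPM after CP (median 1864) and 1925 to 3046 CPM in saline mice (median 2421). Both overlapped, with replicate 2 at 3 days on the vitamin A diet as the highest CP library. Of the Myl6 transcript sequence, 7.059% of 100-base stretches are shared with the gene model Gm8894, so its counts may include reads from there.

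Of the 9 thin filament genes, Tpm1 and Lmod1 fell at 3 days on the normal diet, Tpm1 also fell at 1 day on that diet, and none passed on the vitamin A diet. Acta2, alpha smooth muscle actin (chromosome 19, 34217736 to 34232985, minus strand), had 3897, 5514 and 2569.5 CPM on the vitamin A diet and 2178, 3833 and 3246 CPM on the normal diet at 3 days. At 1 day Acta2 had 3372, 2049 and 4167 CPM on the vitamin A diet and 2265, 4136 and 3502 CPM on the normal diet. Saline mice had 6029, 4712 and 3894 CPM on the vitamin A diet and 4755, 6534 and 4835 CPM on the normal diet. Acta2 overlapped between CP and saline on the vitamin A diet and did not on the normal diet, where log2 was -0.86 at 3 days (95% interval -1.54 to -0.18, adjusted p = 0.105) and -0.71 at 1 day (-1.38 to -0.03, adjusted p = 0.17).

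Actg2, gamma smooth muscle actin, the visceral isoform (chromosome 6, 83489891 to 83513233, minus strand), had 1539, 3015 and 1754 CPM on the vitamin A diet and 1116, 1859 and 2079.6 CPM on the normal diet at 3 days and 1507, 1090.1 and 2088 CPM on the vitamin A diet and 895, 1517 and 1769 CPM on the normal diet at 1 day. Saline values of Actg2 were 3361, 2288 and 1797 CPM on the vitamin A diet and 3158, 3164 and 2079 CPM on the normal diet. At 1 day on the normal diet the groups did not overlap and log2 was -1.01 (SE 0.35, adjusted p = 0.0666), which missed the threshold. The ratio at 3 days on the vitamin A diet was -0.24, and 0.065 without saline replicate 1. Acta2 and Actg2 share no 100-base stretch with other genes' transcripts in the annotation used here.

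Tagln (chromosome 9, 45840926 to 45847356, minus strand) had 3751, 8296 and 3364 CPM on the vitamin A diet and 2723, 4118 and 3812 CPM on the normal diet at 3 days. The 1 day libraries had 4100.5, 2909 and 4961 CPM on the vitamin A diet and 2872, 4268 and 5069.5 CPM on the normal diet, and saline mice had 7482, 5154 and 4850.4 CPM on the vitamin A diet and 5524, 7236 and 5237 CPM on the normal diet. Replicate 2 at 3 days on the vitamin A diet was the highest of all 18 libraries for Tagln, at 8296 CPM. No comparison passed for Tagln, with log2 -0.82 at 3 days (adjusted p = 0.144) and -0.56 at 1 day (adjusted p = 0.307) on the normal diet. Its vitamin A ratio at 3 days was -0.17, and it was above 0 without saline replicate 1 (0.070), without CP replicate 1 (0.035) and without CP replicate 3 (0.066). Cnn1, basic calponin (chromosome 9, 22010501 to 22020517, plus strand), had 1480.3, 2969.6 and 1422 CPM on the vitamin A diet and 888, 1804 and 1603 CPM on the normal diet at 3 days, 1948, 1453 and 2714 CPM on the vitamin A diet and 1265, 2101 and 2422 CPM on the normal diet at 1 day, and 3341, 2219 and 1959.7 CPM on the vitamin A diet and 2488, 3231 and 2154 CPM on the normal diet in saline mice. It also passed in no comparison, and only at 3 days on the normal diet did the groups not overlap (log2 -0.94, adjusted p = 0.108).

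Tpm1, alpha-tropomyosin (chromosome 9, 66929872 to 66956954, minus strand), had 2042, 2971 and 1627 CPM on the vitamin A diet and 1350.1, 1990.0 and 1969 CPM on the normal diet at 3 days and 1851, 1378 and 2431 CPM on the vitamin A diet and 1429, 1802 and 1949 CPM on the normal diet at 1 day. In saline mice Tpm1 had 3709, 2889 and 2566 CPM on the vitamin A diet and 3273, 3627 and 2847 CPM on the normal diet. It fell at 3 days (log2 -0.94, adjusted p = 0.0272) and at 1 day (log2 -0.91, adjusted p = 0.0281) on the normal diet. The first call was lost without CP replicates 1 or 3 or without saline replicates 1 or 2 (adjusted p up to 0.15) and the second without CP replicates 1, 2 or 3 or without saline replicates 1 or 2 (adjusted p up to 0.108). On the vitamin A diet its 1 day groups did not overlap either, and the ratio of -0.73 had an adjusted p of 0.0549. Tpm2, beta-tropomyosin, passed in no comparison and ranged over 897 to 3518 CPM after CP (median 1498) and 1756 to 2544 CPM in saline mice (median 1889.7).

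Lmod1, leiomodin, which starts new actin filaments, had 177, 218 and 131 CPM on the vitamin A diet and 103, 197 and 171 CPM on the normal diet at 3 days. At 1 day Lmod1 had 271, 151 and 281 CPM on the vitamin A diet and 165, 212 and 268 CPM on the normal diet, and saline mice had 309.7, 239.5 and 283 CPM on the vitamin A diet and 327, 281 and 262 CPM on the normal diet. It fell at 3 days on the normal diet (log2 -0.94, SE 0.26, adjusted p = 0.0257), a call that was lost without CP replicates 1 or 3 or without saline replicates 1 or 2 (adjusted p up to 0.15). At 1 day its libraries overlapped with saline on both diets. Smtn, smoothelin, an actin-associated protein of contractile cells, ranged over 229.9 to 511 CPM after CP (median 436) and 447 to 614 CPM in saline mice (median 562) and did not pass. Its counts are uncertain to the extent that an opposite-strand gene overlaps it with 13.4% as many counts.

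Cald1, caldesmon, which binds actin and holds back myosin, was the member furthest in the other direction. At 3 days Cald1 had 1294, 1328 and 1154 CPM on the vitamin A diet and 805, 1425 and 1301 CPM on the normal diet, and at 1 day 1605, 1361 and 2627 CPM on the vitamin A diet and 997, 1339 and 1711 CPM on the normal diet. Saline values were 1424, 1375 and 1166 CPM on the vitamin A diet and 1509.7, 1709 and 1481 CPM on the normal diet. At 1 day on the vitamin A diet its ratio was 0.46 (SE 0.25, adjusted p = 0.212), with replicate 3 at 2627 CPM as the highest library. The other 3 ratios of Cald1 against saline were -0.08, -0.47 and -0.22 (3 days vitamin A, 3 days normal, 1 day normal), none past the threshold.

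Among the 8 genes of intermediate filaments and dense bodies, Synpo2 fell in all 4 comparisons. Synpo2 (synaptopodin 2, an actin-bundling protein of dense bodies and Z-discs, chromosome 3, 122870168 to 123029817, minus strand) had 657, 671 and 384 CPM on the vitamin A diet and 320.3, 605 and 478 CPM on the normal diet at 3 days. At 1 day it had 641, 334 and 598 CPM on the vitamin A diet and 508, 576 and 713 CPM on the normal diet. Saline mice had 1429, 1142 and 1066 CPM on the vitamin A diet and 1162, 1321 and 1257 CPM on the normal diet. The highest CP library (713 CPM) was well below the lowest saline library (1066 CPM). At 3 days log2 was -1.10 (adjusted p = 0.0159) on the vitamin A diet and -1.47 (adjusted p = 0.00127) on the normal diet. At 1 day it was -1.25 (adjusted p = 0.00243) and -1.06 (adjusted p = 0.0131), with SEs of 0.26 to 0.27 throughout. Its call stood in all 6 fits without 1 library at 3 days on the normal diet and at 1 day on the vitamin A diet, but it was lost at 3 days on the vitamin A diet without CP replicate 3 or without saline replicate 1 (adjusted p up to 0.0805) and at 1 day on the normal diet without CP replicates 1 or 2 (adjusted p up to 0.0612).

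Synm, the intermediate filament protein synemin (chromosome 7, 67379909 to 67409490, minus strand), had 699.7, 671 and 444 CPM on the vitamin A diet and 312, 634 and 589 CPM on the normal diet at 3 days. At 1 day Synm had 776, 396 and 821 CPM on the vitamin A diet and 626, 699.6 and 783 CPM on the normal diet, and saline mice had 1239.6, 1020.5 and 959 CPM on the vitamin A diet and 1212, 1271 and 1186 CPM on the normal diet. No CP library reached a saline library. Synm fell at 3 days on the normal diet (log2 -1.32, SE 0.27, adjusted p = 0.00354), and the call stood in all 6 fits without 1 library. Its other ratios were -0.84 (adjusted p = 0.0708) at 3 days on the vitamin A diet, -0.73 (adjusted p = 0.0598) at 1 day on that diet and -0.80 (adjusted p = 0.0565) at 1 day on the normal diet.

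Des, desmin, the muscle intermediate filament with which synemin assembles (chromosome 1, 75336936 to 75345223, plus strand), passed in no comparison with saline. At 3 days Des had 1941, 3365 and 1698 CPM on the vitamin A diet and 1118, 2084 and 1971 CPM on the normal diet. Libraries at 1 day had 2857, 2723 and 5118 CPM on the vitamin A diet and 1526, 2294 and 2902 CPM on the normal diet, and saline mice had 3514, 2610.1 and 2475 CPM on the vitamin A diet and 2899, 2955 and 2636 CPM on the normal diet. At 1 day on the vitamin A diet replicate 3 was the highest of all libraries at 5118 CPM, and the groups overlapped. That ratio was 0.28 (adjusted p = 0.592), and -0.077 without that library. At 3 days on the normal diet all 3 CP libraries lay below the saline libraries (log2 -0.77, 95% interval -1.45 to -0.10, adjusted p = 0.149).

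Csrp1, a LIM protein of actin bundles (chromosome 1, 135614371 to 135679970, plus strand), had 2219, 3309.6 and 1660.1 CPM on the vitamin A diet and 1305, 2491 and 2006 CPM on the normal diet at 3 days and 2259, 1540.0 and 2487 CPM on the vitamin A diet and 1521, 2113 and 2231 CPM on the normal diet at 1 day. In saline mice it had 3855, 3102 and 2620.4 CPM on the vitamin A diet and 3454, 4198 and 3335 CPM on the normal diet. Csrp1 fell on the normal diet at 3 days (log2 -0.98, adjusted p = 0.0335) and at 1 day (log2 -0.91, adjusted p = 0.044). The second call was lost without any 1 library (adjusted p up to 0.155), and the first without CP replicates 1 or 3 or without saline replicates 1, 2 or 3 (adjusted p up to 0.181). Ldb3, a PDZ and LIM protein known from Z-discs of striated muscle, had 35.9, 52.5 and 27.7 CPM on the vitamin A diet and 23.9, 51.4 and 43.2 CPM on the normal diet at 3 days. Its values were 44.9, 28.1 and 58.5 CPM on the vitamin A diet and 42.7, 48.9 and 55.98 CPM on the normal diet at 1 day and 73.2, 58.7 and 58.98 CPM on the vitamin A diet and 76.6, 72.3 and 63.5 CPM on the normal diet in saline mice. It fell at 3 days on the normal diet (log2 -0.90, adjusted p = 0.0462), a call lost without CP replicates 1 or 3 or without saline replicates 1, 2 or 3 (adjusted p up to 0.233). All CP libraries of Ldb3 lay below the saline libraries, by a narrow margin at 58.5 against 58.7 CPM.

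The crosslinkers Flna (filamin A) and Actn1 (alpha-actinin 1) and the actin-binding protein Nexn (nexilin) passed in none of the 4 comparisons. Flna ranged over 1692 to 4251 CPM after CP (median 2947) and 3341 to 4456 CPM in saline mice (median 3909). Actn1 ranged over 176 to 547 CPM after CP (median 299) and 319.8 to 456 CPM in saline mice (median 364), and Nexn over 35.9 to 103 CPM after CP (median 50.1) and 45.1 to 72.7 CPM in saline mice (median 59.9). The highest CP library of all 3 genes was replicate 3 at 1 day on the vitamin A diet.

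At the membrane, Pgm5 fell at 3 days on the normal diet and Itga8 at 1 day on the vitamin A diet. Pgm5, which sits at dense plaques with vinculin (chromosome 19, 24655625 to 24839206, minus strand), had 589, 393 and 297 CPM on the vitamin A diet and 274, 502 and 445 CPM on the normal diet at 3 days. At 1 day Pgm5 had 585, 348 and 712 CPM on the vitamin A diet and 450.1, 529 and 543 CPM on the normal diet, and saline mice had 874, 770.1 and 662 CPM on the vitamin A diet and 887, 823 and 775 CPM on the normal diet. Its ratio at 3 days was -1.09 (SE 0.26, adjusted p = 0.011) on the normal diet and -0.87 (SE 0.26, adjusted p = 0.0518) on the vitamin A diet. The call was lost without CP replicate 1 (adjusted p up to 0.0757). Only 1 CP library reached the range of the 6 saline libraries, replicate 3 at 1 day on the vitamin A diet (712 CPM).

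Itga8, the alpha chain of an integrin that smooth muscle carries (chromosome 2, 12111443 to 12306796, minus strand), had the largest ratio of the 34 genes, at low counts. At 3 days it had 28.8, 11.2 and 8.40 CPM on the vitamin A diet and 6.88, 16.5 and 12.5 CPM on the normal diet. By 1 day it stood at 11.7, 2.21 and 7.11 CPM on the vitamin A diet and 8.79, 15.5 and 8.31 CPM on the normal diet, and saline mice had 25.7, 24.3 and 19.7 CPM on the vitamin A diet and 32.2, 27.9 and 22.4 CPM on the normal diet. At 1 day all 6 CP libraries lay below the 6 saline libraries, with log2 -1.77 (SE 0.47, adjusted p = 0.0126) on the vitamin A diet and -1.34 (SE 0.46, adjusted p = 0.0678) on the normal diet. Without CP replicate 2 the first of these was -1.36 and its adjusted p 0.0506. Vcl (vinculin), Cav1 (caveolin 1) and Cavin1, the last 2 of which shape caveolae, passed in none of the 4. Vcl ranged over 247 to 447 CPM after CP (median 366) and 377 to 467 CPM in saline mice (median 448). Cav1 ranged over 384 to 916 CPM after CP (median 611) and 571 to 795 CPM in saline mice (median 729), and Cavin1 over 408 to 756 CPM after CP (median 562) and 523 to 728 CPM in saline mice (median 639).

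The regulators of the phosphatase and of the calcium store held several of the larger ratios. Ppp1r12b, a targeting subunit of the myosin phosphatase (chromosome 1, 134682396 to 134883699, minus strand), had 503, 247 and 234 CPM on the vitamin A diet and 216, 430.2 and 323 CPM on the normal diet at 3 days. At 1 day it had 473, 256 and 445 CPM on the vitamin A diet and 358, 429 and 459 CPM on the normal diet, and saline mice had 614, 542 and 591 CPM on the vitamin A diet and 747, 735 and 754 CPM on the normal diet. No CP library reached a saline library. It fell on the normal diet at 3 days (log2 -1.27, adjusted p = 0.00448) and at 1 day (log2 -0.84, adjusted p = 0.0443), the first in all 6 fits without 1 library and the second in none of them (adjusted p up to 0.141). The vitamin A ratios were -0.85 (adjusted p = 0.0645) and -0.61 (adjusted p = 0.116). Ppp1r14a, which encodes the phosphatase inhibitor CPI-17, did not pass and ranged over 78.8 to 256 CPM after CP (median 115) and 104 to 171 CPM in saline mice (median 128). Hspb6, a small heat shock protein of smooth muscle, ranged over 43.7 to 105 CPM after CP (median 76.5) and 75.3 to 133 CPM in saline mice (median 96.1) and did not pass, and an overlapping opposite-strand gene had 18.6% as many counts.

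Casq2, calsequestrin 2, which stores calcium in the sarcoplasmic reticulum (chromosome 3, 101993731 to 102053830, plus strand), had 22.96, 27.7 and 13.5 CPM on the vitamin A diet and 16.4, 35.4 and 24.7 CPM on the normal diet at 3 days. At 1 day Casq2 had 24.7, 12.96 and 29.2 CPM on the vitamin A diet and 25.3, 37.04 and 32.2 CPM on the normal diet. Saline mice had 67.003, 52.8 and 43.1 CPM on the vitamin A diet and 45.8, 65.4 and 50.9 CPM on the normal diet. All CP libraries (at most 37.0 CPM) lay below all saline libraries (at least 43.1 CPM). It fell at 3 days on the vitamin A diet (log2 -1.35, adjusted p = 0.0123) and on the normal diet (log2 -1.14, adjusted p = 0.0245). At 1 day it fell on the vitamin A diet (log2 -1.32, adjusted p = 0.00566), in all 6 fits without 1 library, whereas the calls at 3 days were lost on the vitamin A diet without CP replicate 3 or without saline replicate 1 (adjusted p up to 0.0666) and on the normal diet without CP replicates 1 or 3 or without saline replicates 2 or 3 (adjusted p up to 0.139). On the normal diet at 1 day its ratio of -0.78 did not pass (adjusted p = 0.112). Casq2 is also a gene of heart muscle. The 6 cardiac markers summed to 246 to 628 CPM (vitamin A) and 247 to 476 CPM (normal diet) at 3 days, 172 to 419 and 218 to 552 CPM at 1 day, and 436 to 798 and 760.0 to 995 CPM in saline mice, so the CP sums lay below saline without overlap on the normal diet at both times and at 1 day on the vitamin A diet. Nearly all of that sum came from Actc1 and Tnnt2, while Myl2 and Nppa averaged at most 0.0805 and 0.0403 CPM in any group. Actc1, the cardiac actin, averaged 259 ± 131 and 237 ± 91.9 CPM at 3 days, 195 ± 128 and 264 ± 150.3 CPM at 1 day, and 418 ± 154 and 629 ± 111 CPM in saline mice. Its log2 ratios of -0.69, -1.47, -1.16 and -1.25 and those of the troponin Tnnt2 (-0.56, -1.16, -0.63 and -0.79) did not pass (lowest adjusted p = 0.0757), and their part in the values of Casq2 was not tested.

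Pcp4, a small regulator of calmodulin (chromosome 16, 96268806 to 96326993, plus strand), was the member that differed most between the days on the vitamin A diet. At 3 days it had 79.3, 211 and 62.1 CPM on the vitamin A diet and 93.5, 91.95 and 73.9 CPM on the normal diet. The values at 1 day were 38.7, 49.2 and 53.9 CPM on the vitamin A diet and 66.1, 107 and 85.6 CPM on the normal diet, and saline mice had 191, 139.7 and 97.6 CPM on the vitamin A diet and 119, 192 and 134 CPM on the normal diet. It fell at 1 day on the vitamin A diet (log2 -1.63, SE 0.37, adjusted p = 0.00456), where all 3 CP libraries were below all others of the experiment, and the call stood in all 6 fits without 1 library. On the normal diet the ratio at 1 day was -0.79 (adjusted p = 0.18) and the groups did not overlap either, with 107 CPM in the highest CP library and 119 CPM in the lowest saline library. Of its transcript sequence, 19.11% of 100-base stretches are shared with the neighbouring gene Igsf5, so some reads may not be told apart. Pln, phospholamban, which restrains the calcium pump, had 5.49, 3.55 and 2.44 CPM on the vitamin A diet and 4.82, 9.70 and 6.83 CPM on the normal diet at 3 days, 3.30, 2.31 and 5.62 CPM on the vitamin A diet and 3.20, 3.59 and 4.13 CPM on the normal diet at 1 day and 9.61, 8.79 and 4.13 CPM on the vitamin A diet and 7.37, 8.46 and 9.76 CPM on the normal diet in saline mice. It passed at 1 day on the normal diet (log2 -1.23, adjusted p = 0.0417), a call lost without any 1 library (adjusted p up to 0.135). However, an opposite-strand gene that overlaps it, Cep85l, had 325% as many counts, and whether counting used strand is not given, so the level of Pln is uncertain.

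The 2 transcription factors passed in none of the 4 comparisons. Srf, the DNA-binding factor (chromosome 17, 46857764 to 46869194, minus strand), had 114, 113 and 113 CPM on the vitamin A diet and 101, 122 and 127 CPM on the normal diet at 3 days. After 1 day the gene had 118, 106 and 137 CPM on the vitamin A diet and 105, 125 and 128 CPM on the normal diet, and saline mice had 150.1, 132 and 116 CPM on the vitamin A diet and 141, 129 and 159.9 CPM on the normal diet. Its libraries were the tightest of the 34 genes, with a pooled SD of 0.16 in log2 CPM within groups, and its ratios against saline were -0.24 (95% interval -0.53 to 0.05), -0.35 (-0.64 to -0.06), -0.18 (-0.46 to 0.11) and -0.26 (-0.55 to 0.02) at 3 days vitamin A, 3 days normal, 1 day vitamin A and 1 day normal. The adjusted p-values of Srf were 0.122 to 0.412, and its CP libraries lay below the saline libraries without overlap in all but the 1 day comparison on the vitamin A diet. Myocd, the muscle cofactor of SRF (chromosome 11, 65064434 to 65160815, minus strand), had 58.4, 70.3 and 35.9 CPM on the vitamin A diet and 41.5, 76.4 and 61.8 CPM on the normal diet at 3 days. At 1 day Myocd had 92.4, 48.8 and 91.8 CPM on the vitamin A diet and 55.01, 73.2 and 92.98 CPM on the normal diet, and saline mice had 67.9, 74.3 and 57.02 CPM on the vitamin A diet and 75.4, 115 and 81.1 CPM on the normal diet. Every comparison overlapped for Myocd, with ratios from -0.65 (3 days, normal diet) to 0.19 (1 day, vitamin A diet) and adjusted p-values of 0.168 to 0.697.

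**Figure D3:**
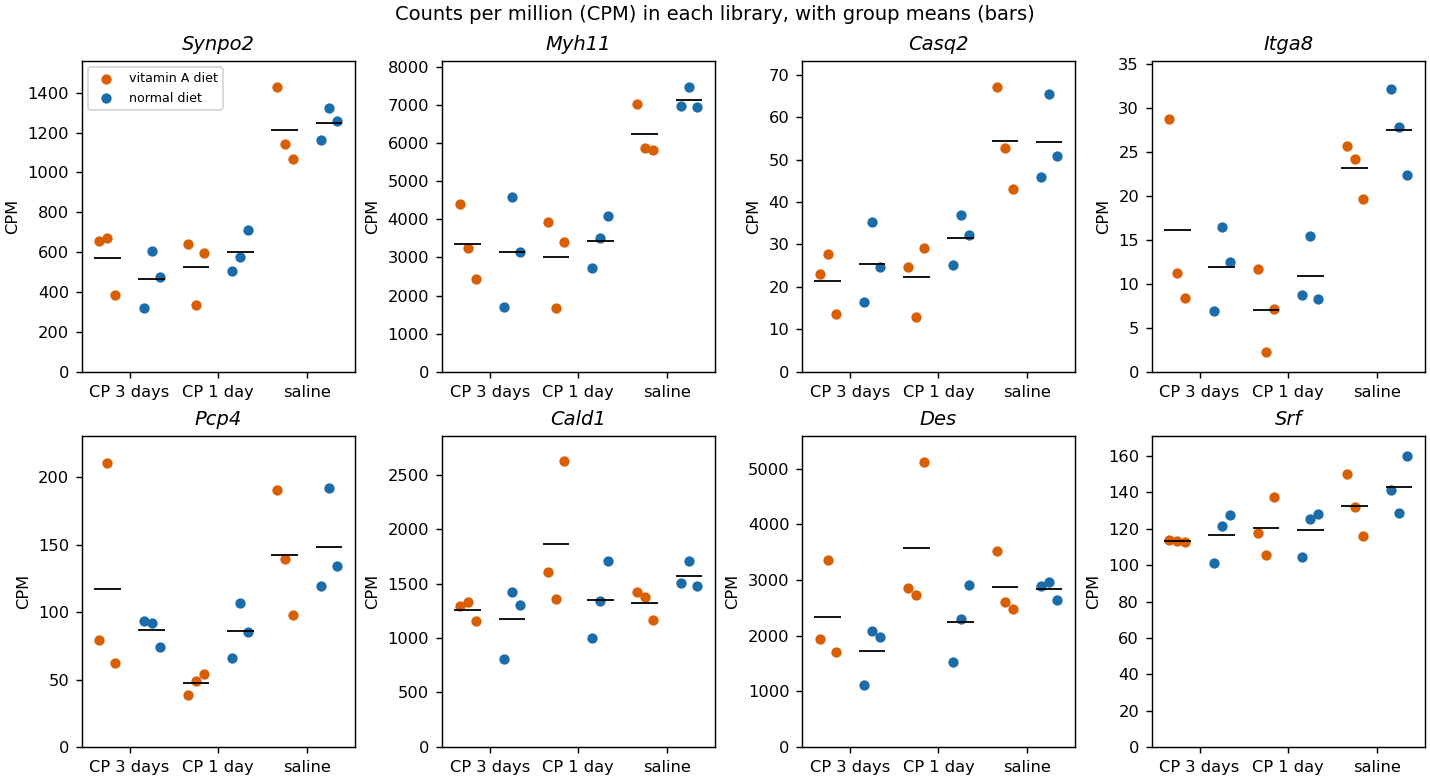
CPM (y axis) of 8 of the 34 genes in each library (points) with the group means (bars), at 3 days and 1 day after CP and in saline mice (x axis), vitamin A diet left of normal diet. Synpo2, Myh11 and Casq2 separate all CP from all saline libraries, Itga8 does so at 1 day, Pcp4 is lowest at 1 day on the vitamin A diet, and Cald1 and Des show the high replicate 3 of that group at 2627 and 5118 CPM.

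Each gene's share of the summed counts of the 34 in a library describes the mixture of messages among them (6 libraries per state, both diets). At 3 days the shares of 32 of the 34 genes overlapped with those in saline mice and 2 lay below them without overlap. At 1 day 22 overlapped, 5 lay below and 7 above. The genes named here were chosen after their values were seen. Synpo2 took 1.22% to 1.70% of the summed counts at 3 days, 1.21% to 1.86% at 1 day and 2.05% to 2.38% in saline mice. Myh11 took 5.93% to 11.4% of the summed counts at 3 days, 6.15% to 9.99% at 1 day and 11.05% to 13.1% in saline mice, which overlap at 3 days only. Csrp1 took 5.70% to 6.16% of the summed counts at 3 days, 5.05% to 5.63% at 1 day and 5.81% to 6.52% in saline mice, so that its 1 day libraries lay below the saline ones. In the other direction, Cald1 took 2.43% to 3.995% of the summed counts at 3 days, 3.35% to 5.33% at 1 day and 2.24% to 2.80% in saline mice. Des took 4.89% to 6.14% of the summed counts at 3 days, 5.60% to 10.4% at 1 day and 4.59% to 5.53% in saline mice, and its 6 libraries at 1 day lay above the 6 saline libraries. Ppp1r14a took 0.223% to 0.467% of the summed counts at 3 days, 0.321% to 0.450% at 1 day and 0.230% to 0.269% in saline mice. Tagln, at 9.70% to 15.1% of the summed counts at 3 days, 10.1% to 11.7% at 1 day and 9.90% to 11.8% in saline mice, overlapped across the states. These shares are a description with no test, since a rise of 1 gene lowers the shares of the others.

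**Figure D4:**
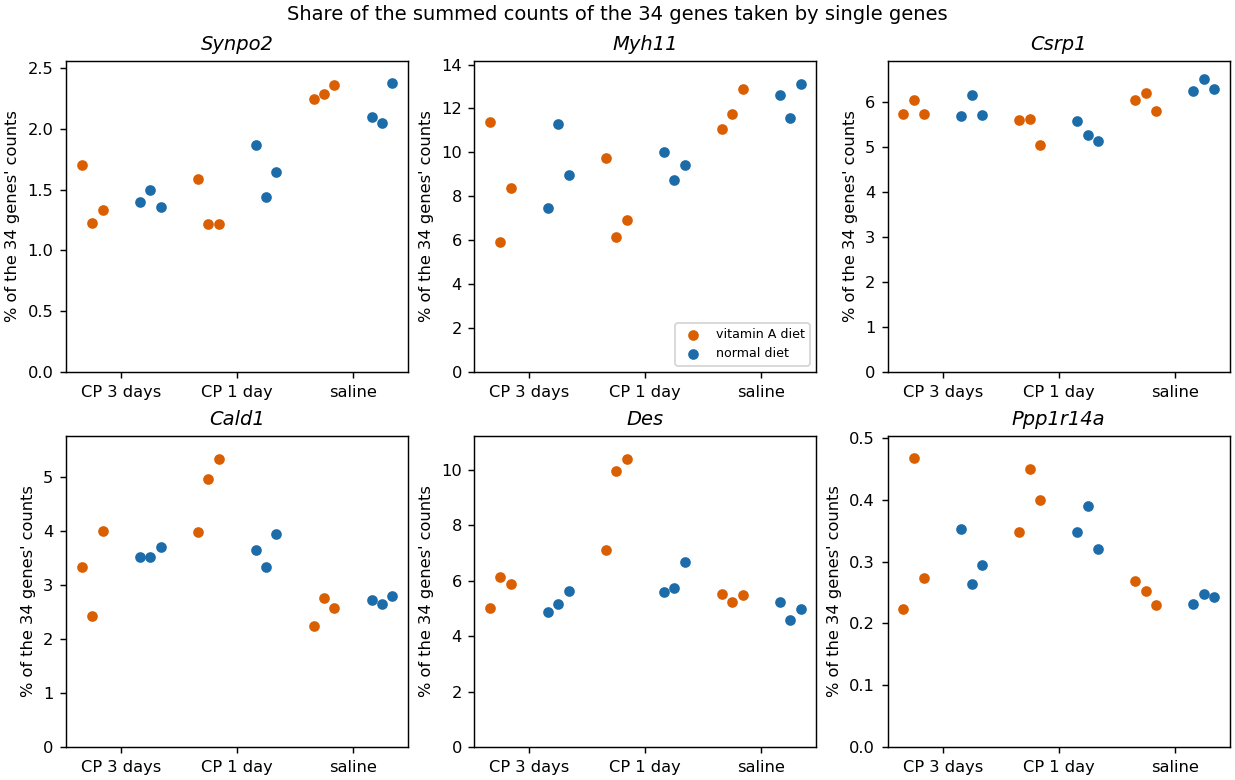
Share of the summed counts of the 34 genes (y axis, percent) taken by 6 of them in each library (points), at 3 days and 1 day after CP and in saline mice (x axis), vitamin A diet left of normal diet. Synpo2 lies at 1.21% to 1.86% in the CP libraries and at 2.05% to 2.38% in saline libraries, while Cald1 at 1 day lies at 3.35% to 5.33% against 2.24% to 2.80% in saline libraries.

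Several families hold a gene of the chosen muscle list and a counterpart used by non-muscle cells. Of 15 such counterparts, all tested, 3 rose and 1 fell at 3 days on each diet, 6 rose and 2 fell at 1 day on the vitamin A diet, and 3 rose and 1 fell at 1 day on the normal diet. Their median log2 ratios were 0.16, 0.33, 0.29 and 0.27 in that order (vitamin A before normal at 3 days). Of all genes tested, 4.32% rose and 1.67% fell at 3 days on the vitamin A diet, and 6.74% rose and 3.30% fell on the normal diet. At 1 day 10.2% rose and 9.05% fell on the vitamin A diet, and 7.26% rose and 4.49% fell on the normal diet. Tpm4, a non-muscle tropomyosin, averaged 256 ± 30.5 and 283 ± 29.01 CPM at 3 days, 277 ± 59.4 and 193 ± 14.95 CPM at 1 day, and 144 ± 18.5 and 121 ± 11.3 CPM in saline mice (vitamin A, then normal diet). Its ratios were 0.81 and 1.17 at 3 days and 0.92 and 0.68 at 1 day, with adjusted p-values of 0.0043, 0.00011, 0.000614 and 0.0111. Tagln2, the non-muscle transgelin, rose likewise in all 4, by 0.77, 1.01, 1.05 and 0.83 on the log2 scale. Vim (vimentin), the intermediate filament of mesenchymal cells, rose at 3 days (log2 0.86 and 1.02, adjusted p = 0.0315 and 0.00814). Tpm3, another tropomyosin, rose at 1 day (log2 0.70 on the vitamin A and 0.45 on the normal diet). Smtnl2, a smoothelin-like gene, fell in all 4 (log2 -1.04, -1.07, -1.43 and -0.96), and Myh10, a non-muscle myosin heavy chain, fell at 1 day on the vitamin A diet (log2 -1.27, adjusted p = 0.00114). The non-muscle genes are expressed by many cells of the bladder, and the part of other cell types in their change was not tested. The genes of the muscle list were chosen by name, and whether each is limited to muscle was not tested either.

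**Figure D5:**
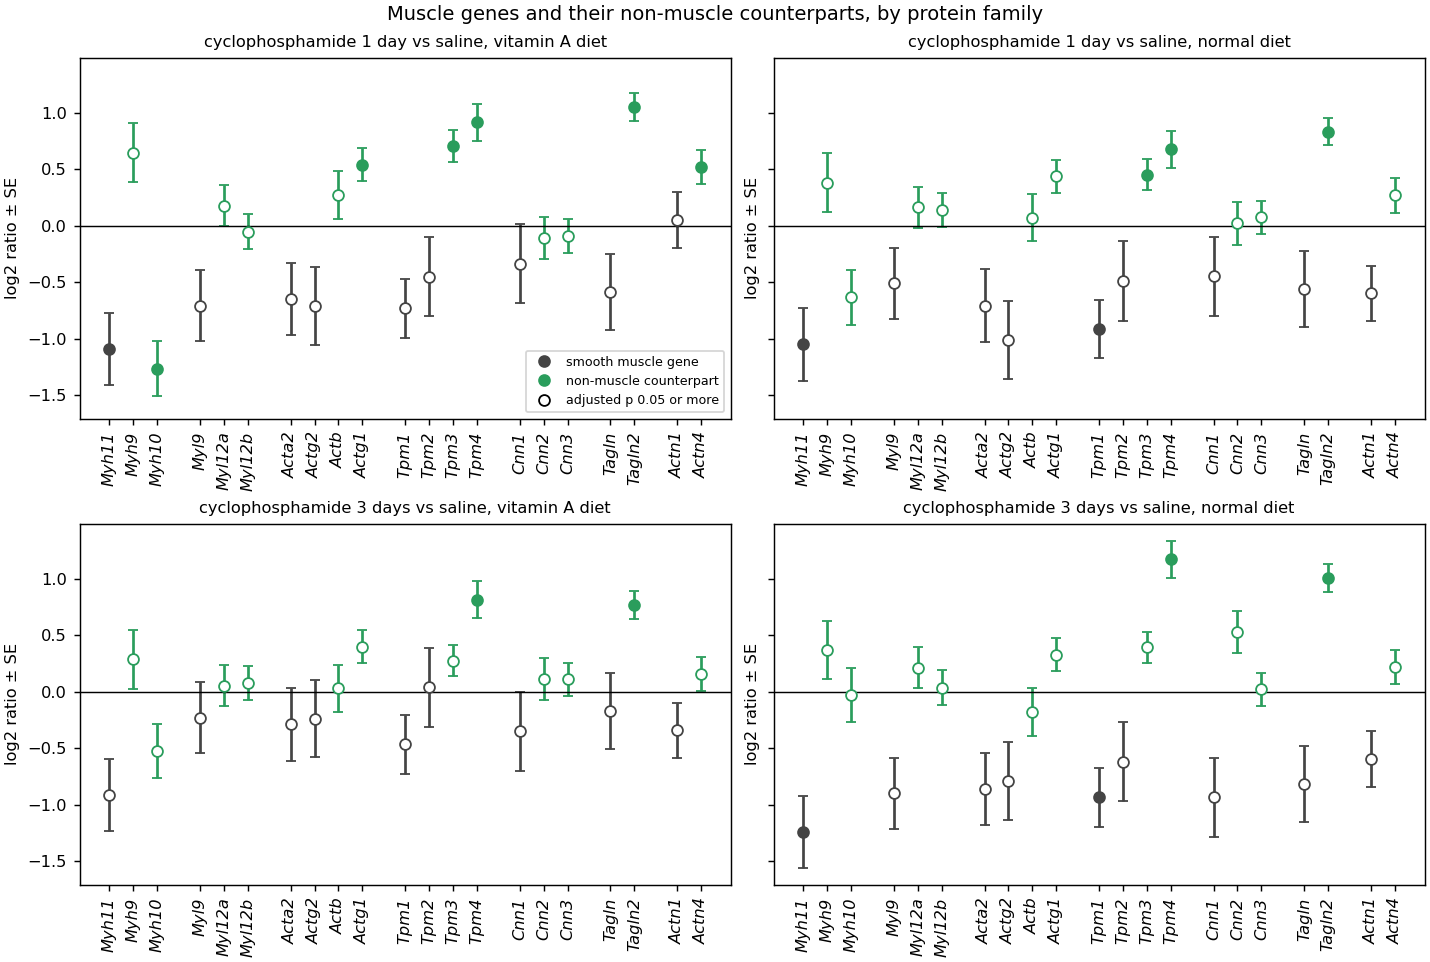
Log2 ratio of CP over saline (y axis, ± SE) for genes of the chosen muscle list (dark) and their listed non-muscle counterparts (green). Genes are grouped by protein family along the x axis, in the 4 comparisons, with filled points for an adjusted p under 0.05. Whether the dark genes are limited to muscle was not tested. Tpm4 and Tagln2 lie above 0 and filled in every panel, with Tpm4 between 0.68 and 1.17, while Tpm1 and Tagln lie below 0.

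Other genes of the pathway were read from 4 further lists. The shares of all genes given with the counterparts hold for these lists and the marker lists below. Counts in lists this short were not tested against those shares. Of 21 genes of the dense plaque and the dystrophin and sarcoglycan complex, 2 fell at 3 days on the vitamin A diet, 7 at 3 days on the normal diet, 4 at 1 day on the vitamin A diet and 3 at 1 day on the normal diet, and none rose in any of the 4. Dmd, which encodes dystrophin, fell at 1 day on both diets (log2 -1.01 on the vitamin A diet, adjusted p = 0.00495, and -1.13 on the normal diet, adjusted p = 0.00402). Tns1 (tensin 1), an actin linker at adhesions, fell at 3 days on both diets (log2 -0.82 and -1.20) and at 1 day on the normal diet (log2 -0.97). At 3 days on the normal diet the largest ratios of this list were those of Sgca (alpha-sarcoglycan, log2 -1.36), Tns1 and the integrin chain Itga1 (log2 -1.12). On the vitamin A diet, Lims2 fell at 3 days (log2 -1.03), and Itga7 (log2 -0.94) and Lims2 (log2 -0.86) at 1 day. Itga1 also fell at 1 day on the normal diet (log2 -0.84).

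Of 10 SRF cofactors and related transcription factors, 1 rose and 1 fell at 3 days on the vitamin A diet, 1 rose and 2 fell at 3 days on the normal diet, 1 rose and 3 fell at 1 day on the vitamin A diet, and 0 rose and 3 fell at 1 day on the normal diet. Foxo4, a forkhead factor that binds myocardin, fell in all 4 (log2 -0.53, -0.68, -0.61 and -0.57). Elk3, an ETS factor that acts with SRF, rose at 3 days on both diets (log2 0.67 and 0.78) and at 1 day on the vitamin A diet (log2 0.44). Tead1 fell at 3 days on the normal diet (log2 -0.56) and at 1 day on both diets (log2 -0.48 and -0.57), and Gata6 at 1 day on the vitamin A diet (log2 -0.45). Klf4, known to repress smooth muscle genes and also a factor of the urothelium, fell at 1 day on the normal diet (log2 -0.74, adjusted p = 0.0138).

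Of the 9 calcium store genes tested, none rose or fell at 3 days on the vitamin A diet, 1 fell at 3 days on the normal diet, 2 rose and 1 fell at 1 day on the vitamin A diet, and 1 rose and 2 fell at 1 day on the normal diet. The ryanodine receptor Ryr3 fell on the normal diet at 3 days (log2 -0.96) and at 1 day (log2 -0.87), with Ryr2 at 1 day (log2 -1.37). On the vitamin A diet, the inositol trisphosphate receptor Itpr1 fell at 1 day (log2 -0.84). Calr, the calcium-binding chaperone of the endoplasmic reticulum in all cells, rose at 1 day on both diets (log2 1.10 and 0.65), as did the channel Orai1 on the vitamin A diet (log2 0.59). Of 13 genes of myosin phosphatase control and related signalling, none passed at 3 days on the vitamin A diet. Counts for the other comparisons, and any genes past the threshold at 1 day on the vitamin A diet, are not given here. At 3 days on the normal diet Ppp1r12a, the main targeting subunit of myosin phosphatase, fell (log2 -0.98) together with the catalytic subunit Ppp1cb (log2 -0.50). At 1 day Prkg1, the cGMP-dependent kinase that relaxes smooth muscle, fell on the normal diet (log2 -1.29).

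Markers of other cells moved with the same comparisons. The 8 pericyte and vascular mural markers summed to 587 to 912 and 646 to 834 CPM at 3 days, 444 to 764 and 593 to 695 CPM at 1 day, and 927 to 1008 and 1071 to 1149 CPM in saline mice (vitamin A, then normal diet), with none at 0 in any library. The list's median log2 ratios were 0.05, -0.16, 0.12 and -0.10 (3 days vitamin A, 3 days normal, 1 day vitamin A, 1 day normal), and without Rgs5 the other 7 markers summed in the mean to 465 and 469.8 CPM at 3 days, 532 and 474 CPM at 1 day, and 445 and 519 CPM in saline mice. Rgs5, a marker of pericytes, averaged 252 ± 55.9 and 281 ± 28.8 CPM at 3 days, 108 ± 50.6 and 158 ± 40.1 CPM at 1 day, and 512 ± 65.7 and 596 ± 39.9 CPM in saline mice, and fell in all 4 (log2 -1.04, -1.14, -2.29 and -1.92), while Kcnj8 rose at 1 day on the vitamin A diet (log2 1.08) and Pdgfrb fell at 1 day on the normal diet (log2 -0.89). The 8 fibroblast markers summed to 6019.7 to 13414 and 8508 to 12918 CPM at 3 days, 1564 to 3675 and 2119 to 3228 CPM at 1 day, and 6761 to 7509 and 6445 to 7229 CPM in saline mice. Of these markers 8 fell at 1 day on the vitamin A diet and 6 on the normal diet, but at 3 days 1 fell on each diet and 1 rose on the normal diet. The fibroblast sums were thus low at 1 day and at or above saline in most libraries at 3 days. The median log2 ratios of the 8 fibroblast markers were 0.21 and 0.01 at 3 days and -2.04 and -1.52 at 1 day (vitamin A, then normal diet). The median log2 ratio of the 34 muscle genes was below 0 at both times on both diets.

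The 10 skeletal muscle markers summed to 212 to 420.1 and 153 to 252 CPM at 3 days, 118 to 247 and 114 to 209 CPM at 1 day, and 316 to 485 and 304 to 383 CPM in saline mice (vitamin A, then normal diet). The CP sums lay below those of saline mice without overlap at 1 day on both diets and at 3 days on the normal diet. The median log2 ratios of the 8 tested were -0.23, -0.43, -0.55 and -0.81 in the order 3 days vitamin A, 3 days normal, 1 day vitamin A and 1 day normal. In that order 1, 1, 2 and 1 fell, and 1 rose at 1 day on the vitamin A diet. Myh2, a fast myosin heavy chain, averaged 3.46 ± 2.68 and 2.996 ± 2.01 CPM at 3 days, 0.365 ± 0.327 and 1.81 ± 0.801 CPM at 1 day, and 31.3 ± 20.04 and 11.7 ± 8.63 CPM in saline mice, and fell in all but the normal diet at 3 days. Acta1, the skeletal actin, fell at 1 day on the vitamin A diet (log2 -1.68) and Ckm, the muscle creatine kinase, at 3 days on the normal diet (log2 -1.19), while Tnni2, a fast troponin, rose at 1 day on the vitamin A diet (log2 1.27). Myh1, Myh4 and Mb were under 1 CPM in every group mean.

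The 5 myofibroblast and wound matrix markers summed to 971 to 1428 and 902 to 1382 CPM at 3 days, 927 to 2262 and 919.5 to 1373 CPM at 1 day, and 973 to 1379.8 and 934 to 1362 CPM in saline mice, and overlapped in all 4 comparisons. At 1 day on the vitamin A diet 2 of them rose, Postn (periostin, log2 1.04) and Tnc (tenascin C, log2 1.16), and at 3 days on the normal diet 1 did, Cthrc1 (log2 3.04). None of the 5 fell. Replicate 3 at 1 day on the vitamin A diet, 1 of the 2 libraries named above and the one with the highest Des, had the highest sum of all 18 libraries for these markers (2262 CPM) and for the 5 adipocyte markers (262 CPM). The part of these cells in the results was not tested.

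Between 3 days and 1 day after CP, 1 of the 34 genes passed on the vitamin A diet and none on the normal diet. On the normal diet none of the 34 passed (0.217% of all genes were lower and 1.22% higher at 3 days), 1 of them at an unadjusted p under 0.05 (11.3% of all genes), and the median log2 ratio of 3 days over 1 day was -0.25, against -0.01 over all genes. The ratio with the lowest adjusted p was that of Pln (log2 0.90, SE 0.38, adjusted p = 0.338). Its libraries were higher at 3 days without overlap, as in 15.1% of all genes, and no member was lower without overlap, against 7.88%. DESeq2 called none of the 34 either, where it called 664 of all 19323 genes. On the vitamin A diet, 1 of the 34 genes rose and none fell (2.55% of all genes rose and 1.69% fell), and the median was -0.05, against 0.01 over all genes. That gene was Pcp4, with 79.3, 211 and 62.1 CPM at 3 days and 38.7, 49.2 and 53.9 CPM at 1 day (log2 1.36, SE 0.37, adjusted p = 0.0458). Its rise rested on replicate 2 at 3 days, without which log2 was 0.55 (adjusted p = 0.272). Pcp4 also missed the threshold without any 1 of the 3 libraries at 1 day (adjusted p up to 0.111). Replicate 2 at 3 days was the library with 14.2% of counts on short genes, and Pcp4 is 641 bases long. Whether these are linked was not tested. Pcp4 was also the only member higher at 3 days without overlap on this diet, against 7.27% of all genes, and Cald1 the only one lower (log2 -0.54, adjusted p = 0.235), against 8.36%. Itga8 had 28.8, 11.2 and 8.40 CPM at 3 days and 11.7, 2.21 and 7.11 CPM at 1 day on this diet (log2 1.21, adjusted p = 0.157), with 1 high library, replicate 1 at 3 days. Myh11 (log2 0.18 on the vitamin A diet and -0.19 on the normal diet), Acta2 (0.36 and -0.15) and Mylk (-0.07 and -0.26) were within 0.36 of 0 on both diets. For Myh11 the 95% intervals were -0.48 to 0.85 and -0.86 to 0.48, which leaves changes of either sign possible.

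The diet itself moved none of the 34 genes past the threshold. After 3 days, vitamin A over normal diet gave a median log2 ratio of 0.22 with 29 of 34 ratios above 0 (0.00518% of all genes rose and 0% fell), and 0.02 when the 2 libraries named above were left out. After 1 day the median was 0.03 with 19 above 0 (0.238% of all genes rose and 0.228% fell), and -0.19 without those libraries. Because those libraries were the highest of their groups for the 34 genes, leaving them out lowers both medians by that choice. In saline mice the median was -0.10 with 7 above 0 (0.0104% of all genes rose and 0% fell). At an unadjusted p under 0.05 there were 1, 2 and 0 of the 34 in these 3 comparisons, against 3.76%, 11.1% and 3.78% of all genes. DESeq2 over the same 18 libraries also called none of the 34, and 11, 499 and 17 of 19323 genes in the same order. The intervals were wide: for Myh11 they were -0.51 to 0.82 at 3 days, -0.88 to 0.45 at 1 day and -0.84 to 0.49 in saline mice, for Acta2 -0.22 to 1.13, -0.73 to 0.61 and -0.79 to 0.55, and for Srf, the tightest, -0.27 to 0.31, -0.29 to 0.29 and -0.38 to 0.20. Each of these intervals holds 0.

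Single members are named for the diet where their libraries did not overlap or where the authors' deposited tables list them. Pcp4 at 1 day had 38.7, 49.2 and 53.9 CPM on the vitamin A diet and 66.1, 107 and 85.6 CPM on the normal diet, with no overlap, and log2 -0.88 (adjusted p = 0.364). In the authors' deposited table of that comparison, turned to vitamin A over normal, Pcp4 is listed at log2 -0.87 with an adjusted p of 0.00287. The authors' deposited table that holds the saline libraries lists Ppp1r12b at log2 -0.34 with an adjusted p of 0.0115, where the fit here gave -0.34 (adjusted p = 1) from 614, 542 and 591 CPM on the vitamin A diet and 747, 735 and 754 CPM on the normal diet. The log2 ratios are nearly the same in both sources, and the reason for the different adjusted p-values was not tested. In saline mice the libraries of 4 members, Ppp1r12b, Myocd, Cald1 and Vcl, lay lower on the vitamin A diet without overlap, against 8.05% of all genes, and none lay higher, against 7.20%. At 1 day those of Pcp4 alone lay lower, against 7.89% of all genes, and none higher, against 7.85%. At 3 days all 34 overlapped, where 5.06% of all genes were lower and 1.98% higher without overlap. The authors' deposited tables, which list only genes with an unadjusted p under 0.05, hold 4, 4 and 2 members for saline, 1 day and 3 days, and the other 8 entries have adjusted p-values of 0.158 to 0.999 there.

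Whether the response to CP differed between the diets was tested as an interaction, and none of the 34 genes passed in any of the 3 interactions, where 0% of all genes did. At 3 days against saline the difference of the log2 ratios, vitamin A minus normal diet, had a median of 0.39 and was above 0 in 32 of 34 genes, but the median was 0.10 without the 2 libraries named above. At 1 day against saline its median was 0.16, and -0.06 without them. For 3 days against 1 day the median was 0.24, and 0.20 without them. Since those libraries were the highest of their groups for the 34 genes, leaving them out lowers the vitamin A values after CP by that choice. At an unadjusted p under 0.05 there were 0, 0 and 1 of 34 genes in these interactions, against 2.40%, 7.79% and 8.96% of all genes. DESeq2 called none of the 34, and 0, 120 and 87 of 19323 genes in the same order. The fall of 11 genes on the normal diet and of 2 on the vitamin A diet at 3 days is therefore not shown to be a difference between the diets.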

How the data were processed

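Total RNA of whole bladders was sequenced from NEBNext Ultra libraries, per the labels' protocols. The deposited count table holds raw read counts per gene made by the authors; the submitters' processing notes name HISAT2 2.0.5, featureCounts 1.5.0-p3, DESeq2 1.20.0 and GRCm39, with no role given for each. Neither the use of strand nor the handling of reads that map to several places is stated there or in the labels. The authors' FPKM values, as deposited, are per kilobase of gene length and were used here only to order levels between genes. The authors' deposited tables of diet comparisons give log2 ratios and p-values of normal over vitamin A diet, for genes with an unadjusted p-value under 0.05, and their log2 sign was turned here.

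Features without a gene name (14417 of 60750, 0.474% to 0.810% of counts) were left out. Groups and replicate numbers came from sample titles. The main fit was edgeR 4.0.16 (R 4.3.3, limma 3.58.1) with filterByExpr, TMM scaling and the quasi-likelihood test over all 18 libraries, 6 group means and 12 residual degrees of freedom. Benjamini-Hochberg adjustment ran over all 19323 genes tested, with a threshold of 0.05, and every adjusted p in the report is from this fit unless another is named. An exact permutation test of 3 against 3 libraries cannot go below 0.1 and was not used. Mice were housed in groups of 3 with cages not given per mouse, so a cage may coincide with a group of 3 libraries. The p-values measure the spread between these libraries and would not cover such differences between cages. The alternatives were DESeq2 1.42.0, other scalings and filters, a replicate block, the groups compared alone and leaving out single libraries. The fit was tested on simulated counts.

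Samples with the same replicate number did not deviate together (27 pairs, correlation -0.12 to 0.197, 2 of them over 0.1), so the numbers were not taken as pairs. All 34 members are counted and ranged. Values per library are given for Myh11, Acta2, Actg2, Tagln, Cnn1, Des, Mylk, Myocd and Srf, for up to 10 further members past the threshold per comparison and for the member furthest against the majority. Of each pathway list, up to 3 genes in each direction are named, and some are not reported here. The members and lists were chosen with earlier results of these data known.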

Additional observations from a re-analysis of the deposited data

How the results depend on the processing

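All 34 genes passed the filter on low counts, and the part of depth or of the number of libraries in the calls was not tested. Other scalings (DESeq2 size factors, or factors computed without the 34 genes) kept all 12 counts of members past the threshold and all 12 medians within 1.5 times or the replicate spread. In the order 3 days vitamin A, 3 days normal, 1 day vitamin A and 1 day normal, all against saline, the main counts were 2, 11, 5 and 6. DESeq2 gave 6, 16, 8 and 11. Fitting only the groups compared gave 0, 25, 5 and 18, and with no filter on low counts they were 1, 8, 6 and 4. The replicate block gave 2, 10, 5 and 2, and pairing by number moved no other count by over 1.5 times. Over all genes, in the same order, 1766, 2674, 4598 and 3087 of 19323 passed in either direction by DESeq2. In fits of only the groups compared, 499 of 17403, 3710 of 18003, 3405 of 17313 and 4463 of 17279 passed. With no filter 1086, 1676, 3297 and 1954 of 29679 passed, and with the replicate block 1050, 1770, 3527 and 2084 of 19323. With 1 library left out, the counts of members ranged over 0 to 4, 3 to 11, 3 to 8 and 0 to 2. Over all genes they ranged over 671 to 1664, 961 to 1559, 2474 to 3926 and 1239 to 1571 in these fits, against 1156, 1940, 3727 and 2271 in the main fit. At 3 days against 1 day on the vitamin A diet, Pcp4 alone passed in the main fit. For that comparison the count was 0 with no filter, with unnamed features kept and with only the groups compared. It was also 0 without both outlying libraries, and 0 to 1 with 1 library left out. Pcp4 kept its call in 2 of those 6 fits. Without CP replicate 1 at 1 day the count was 1, but Pcp4 missed the threshold. The cause of these moves was not tested, other than that leaving out a library leaves fewer samples.

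Leaving out both CP replicate 3 at 1 day and CP replicate 2 at 3 days on the vitamin A diet, chosen after seeing the data, gave 6 members at 3 days and 11 at 1 day on that diet, and a median log2 ratio of -0.73 at 3 days. Without 1 library that median ranged from -0.73 to -0.21. Against saline, ratios were followed through these fits only for members past the threshold in that comparison and for a fixed set of genes. The set was Myh11, Acta2, Actg2, Tagln, Cnn1, Des, Mylk, Myocd and Srf. Among the members so followed, signs turned for 3 on the vitamin A diet, none of them past the threshold. Whether signs turned for the other members was not tested. Des at 1 day ranged from -0.077 to 0.47 without 1 library and was -0.081 without both. At 3 days Actg2 ranged from -0.66 to 0.065 and Tagln from -0.78 to 0.070, with 0.035 without CP replicate 1 and 0.066 without CP replicate 3.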

Other observations

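Markers of other cells of the bladder gave values that the account of the muscle genes has not used. At 3 days, 3 of 5 macrophage markers rose on each diet, and at 1 day 2 of 5 rose on each diet and 1 fell on the vitamin A diet (edgeR quasi-likelihood test, adjusted p under 0.05). Their sums were 169.9 to 375 and 254 to 313 CPM at 3 days, 122 to 226 and 170.4 to 224 CPM at 1 day, and 114 to 169.7 and 126 to 145 CPM in saline mice (vitamin A, then normal diet). Of 7 endothelial markers, 2 rose at 3 days on the vitamin A diet and 5 on the normal diet. At 1 day none rose on the vitamin A diet and 1 on the normal diet, and none fell in any of these comparisons. The endothelial sums were 227 to 392 and 357 to 438 CPM at 3 days, 192 to 229 and 214 to 284 CPM at 1 day, and 186 to 234 and 210.0 to 242 CPM in saline mice. Of 13 urothelial markers, 2 rose and 4 fell at 3 days on each diet, 6 rose and 6 fell at 1 day on the vitamin A diet, and 2 rose and 2 fell at 1 day on the normal diet. Their part in the results on the 34 genes was not tested. The shares of all genes that rose or fell in each comparison are given with the non-muscle counterparts.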
